A study of Mus musculus with 13 samples.

Results

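The regions described here are the genomic windows around 8 mouse genes that encode regulators of the trophoblast, the lineage that forms the embryonic part of the placenta. The genes are Cdx2, Tfap2a, Eomes, Hand1, Gata3, Elf5, Gcm1 and Ascl2, and each was given a window of 50 to 80 kb on mouse build mm9. All 8 windows were examined, beside 42985 windows of 60 kb that tile chromosomes 1 to 19 and X. The cells were feeder-free J1 embryonic stem (ES) cells that carry an inducible knockout of Setdb1 and were grown in serum with LIF. Untreated cells carry the same inducible allele, and the protocol names DMSO as the solvent control. Treated cells received 2.5 µM tamoxifen to ablate Setdb1, for a time that is not given in the sources used here. Peak lists of H3K27me3 came from 2 untreated and 2 tamoxifen libraries, and lists of H3K9me3 from 4 untreated libraries. H3K9me3 after tamoxifen was not analysed here. The lists hold positions alone, so neither the expression of the genes, nor the loss of Setdb1, nor the ES cell identity could be checked from them.

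H3K27me3 is written by Polycomb repressive complex 2 and lies over silent developmental regulators in ES cells, often over stretches rich in CG dinucleotides. Setdb1 is a methyltransferase that deposits H3K9me3, which is best known for holding retroelements silent. Setdb1 has been linked to the silencing of trophoblast genes in ES cells, and Cdx2 is the classic example of a factor that can turn such cells towards trophoblast. The comparison asks how the Polycomb mark over these genes compares with and without tamoxifen, and whether H3K9me3 lies at or near them in untreated cells.

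The 8 windows fell into 2 kinds. H3K27me3 was called by all 4 libraries in the windows of Cdx2, Tfap2a, Eomes, Hand1, Gata3 and Ascl2, which is 6 of 8, against 10.4% of the 60 kb windows. The Gcm1 window held no H3K27me3 peak in any library, as did 71.1% of the 60 kb windows. The Elf5 window held a peak in tamoxifen replicate 2 alone, a pattern seen in 5.23% of the 60 kb windows. H3K27me3 over at least 10 kb in each library was found at Cdx2, Tfap2a, Hand1 and Gata3, which is 4 of 8, against 0.747% of the 60 kb windows. The members are known developmental regulators, for which broad H3K27me3 in ES cells is textbook knowledge, and their windows differ in length from 60 kb.

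Promoter sequences are shown for the 3 marked genes with the most CG pairs (Ascl2, Gata3, Cdx2) and for both genes without a mark in all libraries (Gcm1, Elf5), since CG content is the sequence feature most often named beside H3K27me3. They are RefSeq sequences of build GRCm38.p6, from 250 bases before to 50 bases after an annotated start, written 5′ to 3′ on the gene's strand, with every CG pair in capitals. Their positions are on that build and cannot be set against the mm9 positions of the peaks, so no peak was assigned to a promoter. The last pair of lines gives the 2 annotated starts of Elf5 in order of position.
Ascl2, chr7:142969215-142969514 (- strand): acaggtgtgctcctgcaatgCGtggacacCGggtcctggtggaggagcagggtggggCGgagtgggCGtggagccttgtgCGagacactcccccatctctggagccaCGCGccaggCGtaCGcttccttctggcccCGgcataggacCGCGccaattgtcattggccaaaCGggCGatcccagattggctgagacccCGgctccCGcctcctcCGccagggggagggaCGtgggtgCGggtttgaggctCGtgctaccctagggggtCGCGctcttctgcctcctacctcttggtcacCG
Gata3, chr2:9878551-9878850 (- strand): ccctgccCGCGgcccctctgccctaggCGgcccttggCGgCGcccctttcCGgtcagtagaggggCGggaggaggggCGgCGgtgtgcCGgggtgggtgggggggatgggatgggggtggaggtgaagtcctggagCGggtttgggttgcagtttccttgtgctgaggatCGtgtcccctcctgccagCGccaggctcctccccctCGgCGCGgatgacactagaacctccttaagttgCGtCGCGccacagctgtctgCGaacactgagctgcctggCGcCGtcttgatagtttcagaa
Cdx2, chr5:147307200-147307499 (- strand): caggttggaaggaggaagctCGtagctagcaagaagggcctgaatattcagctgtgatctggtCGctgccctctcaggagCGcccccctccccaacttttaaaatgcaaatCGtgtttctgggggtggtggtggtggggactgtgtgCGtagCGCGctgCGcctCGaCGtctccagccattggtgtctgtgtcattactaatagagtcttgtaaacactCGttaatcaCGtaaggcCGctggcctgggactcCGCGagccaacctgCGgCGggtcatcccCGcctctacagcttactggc
Gcm1, chr9:78051708-78052007 (+ strand): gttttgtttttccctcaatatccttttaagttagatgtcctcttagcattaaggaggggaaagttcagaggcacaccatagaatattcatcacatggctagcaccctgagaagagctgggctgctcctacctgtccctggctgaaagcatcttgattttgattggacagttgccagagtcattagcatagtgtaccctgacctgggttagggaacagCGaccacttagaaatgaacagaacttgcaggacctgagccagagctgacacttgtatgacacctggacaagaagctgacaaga
Elf5, chr2:103411848-103412147 (+ strand): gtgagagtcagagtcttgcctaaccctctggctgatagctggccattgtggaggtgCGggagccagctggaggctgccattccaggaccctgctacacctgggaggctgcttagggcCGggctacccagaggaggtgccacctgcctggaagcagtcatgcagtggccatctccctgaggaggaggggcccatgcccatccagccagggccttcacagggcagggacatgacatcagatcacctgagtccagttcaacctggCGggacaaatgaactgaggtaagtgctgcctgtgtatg
Elf5, chr2:103423818-103424117 (+ strand): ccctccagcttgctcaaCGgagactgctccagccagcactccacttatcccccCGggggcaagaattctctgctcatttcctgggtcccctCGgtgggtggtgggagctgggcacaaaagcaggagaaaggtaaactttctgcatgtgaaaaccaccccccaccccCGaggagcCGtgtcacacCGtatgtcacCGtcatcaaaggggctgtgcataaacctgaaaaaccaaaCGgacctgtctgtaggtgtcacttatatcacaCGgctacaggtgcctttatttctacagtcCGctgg

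Of the 8 genes 7 had an entry in the table, with 9 promoters in all, and Hand1 had none. The motif searched was CG, which reads the same on both strands and overlaps no other motif searched. Ascl2 had 23 CG pairs in its 300 bases, Gata3 22 and Cdx2 18. As many or more were found in 21.5%, 23.1% and 29.7% of the 32851 promoters of the table, whose median was 7. Tfap2a had 15 and 11 at its 2 starts, and Eomes had 10. Gcm1 had 1, and 94.6% of promoters held as many or more. Elf5 had 3 at its first start and 10 at its second, which equals Eomes. The first Elf5 promoter and the Gcm1 promoter thus had fewer CG pairs than every promoter shown or counted for the marked genes, while the second Elf5 promoter did not.

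**Figure D1:**
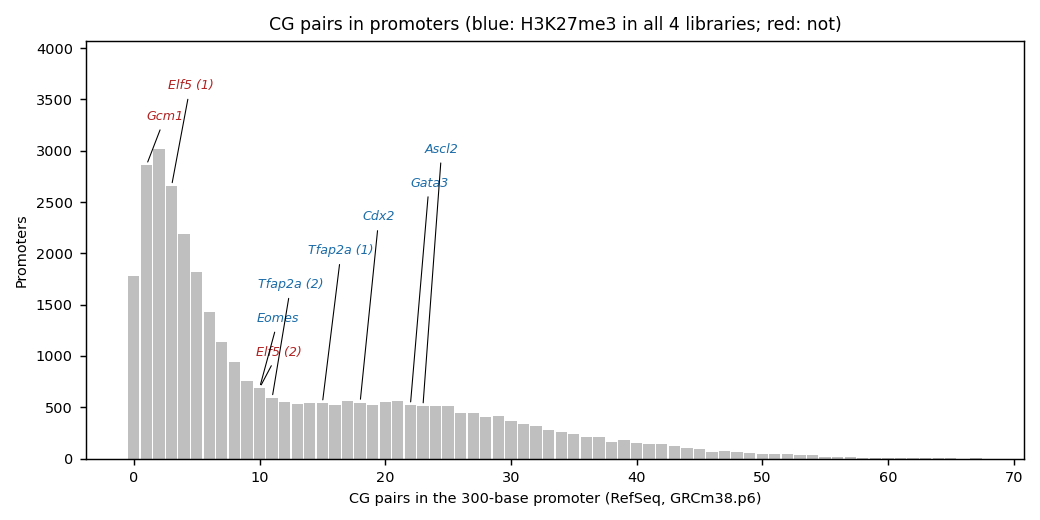
Number of CG pairs in 300-base RefSeq promoters (x axis) and number of promoters with each count (y axis, grey bars, 32851 promoters). Names mark the members, in blue where all 4 libraries called H3K27me3 in the window and in red where they did not; Gcm1 stands at 1, Ascl2 at 23, and Elf5 and Tfap2a appear once per start.

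Covered length, the number of bases of a window that lie in peaks, was the main measure, because the windows do not depend on the lists. H3K27me3 libraries with number 1 come from a first batch, for which the processing notes name MACS2 2.0.10, and those with number 2 from a second, with MACS2 2.1.0. In both batches the tamoxifen list held more peaks, 15116 against 7041 in the first and 22265 against 17094 in the second. The median peak width was 729 against 2511 bp in the first and 727 against 784 bp in the second. Tests compared group means of 2 and 2 libraries by a two-sided exact permutation test, for which 0.333 is the smallest possible p, so no difference could reach 0.05. Each p is the share of relabellings of these libraries, made across the batches, that give at least as large a difference. Nothing in the labels says that libraries came from separate cultures, so these p-values apply to these samples only.

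Across the 6 marked windows, less H3K27me3 was called with tamoxifen than without it, in each of the batches. This held for 6 of 6 windows, where 32.3% of the 4479 tiled windows with H3K27me3 in all libraries showed it and 45.5% of the 321 with at least 10 kb in each library. Both tamoxifen libraries lay below both untreated ones in 3 of the 6, Tfap2a, Eomes and Hand1, against 18.1% of the 4479. The median of tamoxifen as a share of untreated covered length was 89.2% over the 6 members and 95.7% over the 4479. By batch it was 87.6% against 86.2% in the first and 90.6% against 104.7% in the second, and over the 321 broad windows it was 91.8% and 98.4%. The members' median in the first batch was therefore near that of the 4479 windows and below that of the 321 broad ones. Whether the members differ from other windows was not tested. At single genes the tamoxifen mean was 77.1% (Eomes) to 97.1% (Gata3) of the untreated mean. Over all 8 windows the untreated libraries covered 127.8 and 126.8 kb, and the tamoxifen libraries 114.2 and 115.6 kb.

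**Figure D2:**
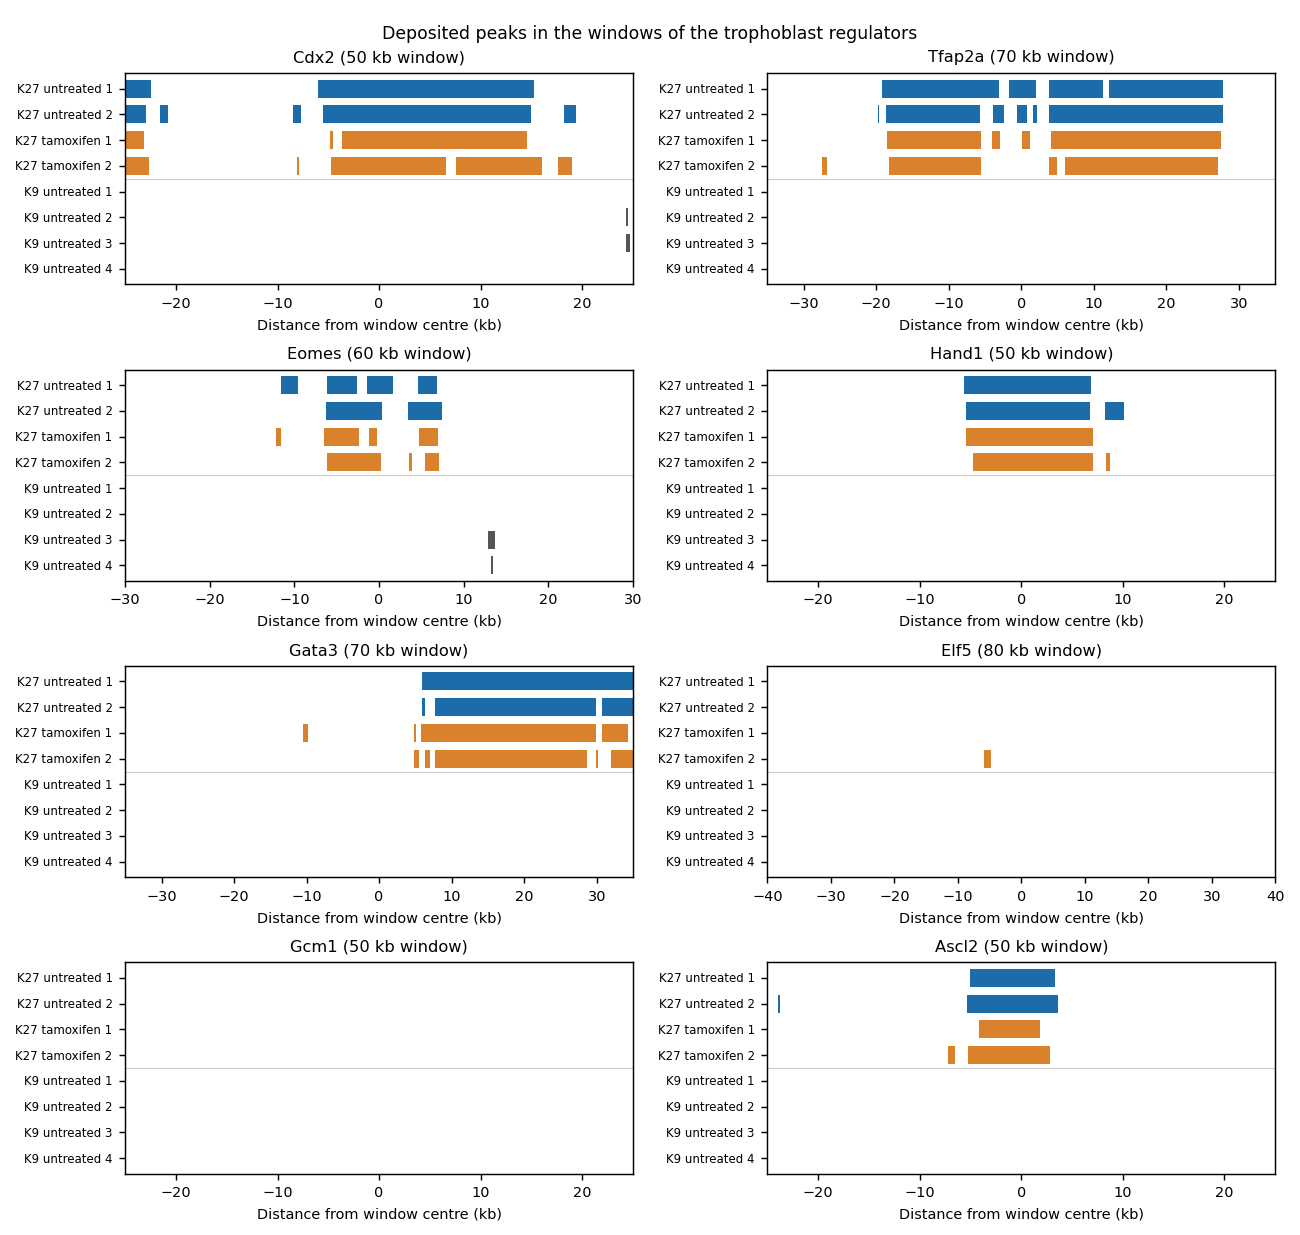
Deposited peaks in each window, as distance from the window's centre in kb (x axis), with 1 row per library: H3K27me3 untreated in blue, H3K27me3 with tamoxifen in orange and H3K9me3 untreated in grey, cut at the window's ends. The same domains recur in all 4 H3K27me3 rows of 6 windows, Gcm1 is empty, Elf5 has 1 peak in tamoxifen replicate 2, and H3K9me3 appears as 4 short peaks at Cdx2 and Eomes.

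Cdx2 encodes a caudal-type homeobox factor that specifies the trophectoderm, the outer layer of the blastocyst. Its window, chr5:148090001-148140000, held 2 domains called by all libraries. The first, chr5:148076242-148092542, lay mostly outside the window. Untreated libraries covered 100% and 81.0% of it and tamoxifen libraries 70.2% and 90.8%, which overlap, with more cover under tamoxifen in the second batch. In the RefSeq gene order Pdx1, a pancreatic homeobox gene, precedes Cdx2 and Urad follows it, and without an mm9 annotation the domains were not assigned to single genes. The second domain, chr5:148108996-148131053, spanned 22058 bp and ranked 79 by width among 4841 merged regions held by all 4 libraries. It was 1 unbroken peak in both untreated libraries and 2 peaks in both tamoxifen libraries, with breaks of 825 and 956 bp at different places. Untreated libraries covered 96.3% and 92.8% of it and tamoxifen libraries 83.9% and 89.9%, so the groups did not overlap (two-sided exact permutation p = 0.333). The widest peak within it was 21243 and 20460 bp untreated and 18234 and 11354 bp with tamoxifen. The whole window was covered over 23785 and 25313 bp untreated and 20359 and 23785 bp with tamoxifen. Here untreated replicate 1 and tamoxifen replicate 2 had the same length, and the means of 24549 ± 1080 and 22072 ± 2423 bp (SD, n = 2 each) gave an exact permutation p of 0.667. The difference of -2477 bp was -764 bp without tamoxifen replicate 1 and -4190 bp without tamoxifen replicate 2.

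Gata3 encodes a GATA zinc finger factor that acts beside Cdx2 in the trophectoderm. Its window, chr2:9750001-9820000, held the widest merged domain of the set, chr2:9790740-9820994, which spanned 30255 bp, ranked 25 of 4841 and ran just past the window's end. In untreated replicate 1 this was a single peak, and in untreated replicate 2 it was 3 peaks. With tamoxifen it was 2 peaks in replicate 1 and 4 in replicate 2. Bases 9815244 to 9815729 lay in a break of 3 of the 4 libraries, and untreated replicate 1 alone covered them. The covered length of the window was 29125 and 26958 bp untreated and 28713 and 25743 bp with tamoxifen. Values interleaved by batch, both libraries of the first batch lying above both of the second. The means were 28041.5 ± 1532 and 27228 ± 2100 bp (SD, 2 libraries each; exact permutation p = 0.667). The difference of -813.5 bp turned to 316 bp when peaks under 1 kb apart were joined, to 270 bp without untreated replicate 1 and to 671.5 bp without tamoxifen replicate 2. Peaks in the window numbered 1 and 3 untreated and 4 and 5 with tamoxifen (exact permutation p = 0.333). Just before the domain, chr2:9789774-9790527 was called over 265 and 754 bp by the tamoxifen libraries and by neither untreated one. It was the only such region in the 8 windows, and it was singled out after its values were seen.

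Tfap2a encodes transcription factor AP-2 alpha, which is active in trophoblast and in neural crest. Its window, chr13:40780001-40850000, had the longest H3K27me3 cover of the set. Untreated libraries covered 43056 and 40763 bp and tamoxifen libraries 38552 and 35592 bp. Both tamoxifen values lay below both untreated ones, and the differences within the batches were -4504 and -5171 bp. The means were 41909.5 ± 1621 and 37072 ± 2093 bp (SD, 2 libraries each; exact permutation p = 0.333). A pair of domains made up this cover. The wider, chr13:40818766-40842856 with 24091 bp and rank 62, was covered over 96.5% and 99.7% untreated and 97.3% and 92.4% with tamoxifen, which overlap. The narrower, chr13:40795766-40812677 with 16912 bp, was covered over 95.3% and 86.2% against 83.0% and 75.1%, which do not (exact permutation p = 0.333). Between them lay chr13:40813364-40817153, where the libraries covered 3689 and 1969 bp untreated, 1093 bp in tamoxifen replicate 1 and nothing in tamoxifen replicate 2. The gap between the domains was thus most nearly bridged in untreated replicate 1 and emptiest in tamoxifen replicate 2. The widest peak of the window was 16116 and 24010 bp untreated and 23430 and 21083 bp with tamoxifen, so its mean was higher with tamoxifen.

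Eomes encodes a T-box factor needed for trophoblast stem cells and, later, for mesendoderm. Its window, chr9:118360001-118420000, was covered over 11009 and 10542 bp untreated and 8128 and 8479 bp with tamoxifen. The libraries of each state lay close together, and the states did not overlap. The means were 10775.5 ± 330.2 and 8303.5 ± 248.2 bp (SD, n = 2 each), tamoxifen being at 77.1% of untreated, the lowest share among the 6 marked windows (exact permutation p = 0.333). Within batches the share was 73.8% and 80.4%. The Eomes window held 2 to 4 peaks per library. The widest was 3576 and 6590 bp untreated and 4214 and 6369 bp with tamoxifen, which overlap. Only 41.1% of the bases covered in any library were covered in all 4, the lowest share of the 6. The domain chr9:118383463-118391681 was 2 peaks in both libraries of the first batch and 1 peak in both of the second. It was covered over 81.6% and 80.2% untreated and 63.1% and 77.5% with tamoxifen. The other domain of all libraries, chr9:118393474-118397425, was covered over 58.6% and 100% untreated and 59.0% and 53.4% with tamoxifen, which overlap. The batches thus differed in where less was called, although the window totals were alike. A region at chr9:118378440-118380428 was called in untreated replicate 1 alone, over 1989 bp.

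Elf5 encodes an ETS factor that reinforces the trophoblast stem cell state, and its promoter is a known site of DNA methylation in ES cells. In its window, chr2:103230001-103310000, the lists of both untreated libraries and of tamoxifen replicate 1 had no H3K27me3 peak. Tamoxifen replicate 2 had 1 peak of 1114 bp at chr2:103264127-103265240. That library had the longest list, with 22265 peaks against 7041 to 17094 in the other 3, and the peak was absent when the 7041 widest peaks of each list were compared. The means were 0 and 557 ± 787.7 bp (SD, 2 libraries each; exact permutation p = 1). In the other 3 libraries the nearest peak lay 97040 and 92452 bp (untreated) and 94093 bp (tamoxifen replicate 1) from the window. No list gives a height or a depth, so a value of 0 says that no peak was called there.

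Hand1 encodes a basic helix-loop-helix factor of trophoblast giant cells and of the heart. Its window, chr11:57620001-57670000, held 1 domain of all libraries, chr11:57639340-57652067, with 12728 bp. It was 1 unbroken peak in every library, covered over 98.7% and 96.0% untreated and 97.8% and 92.6% with tamoxifen. Its right border varied by 281 bp and its left border by 936 bp over the 4 libraries. The window was covered over 12563 and 14066 bp untreated and 12452 and 12170 bp with tamoxifen. The states did not overlap, but the difference within the first batch was -111 bp (exact permutation p = 0.333). In the second batch it was -1896 bp. Most of it came from chr11:57653273-57655124, which untreated replicate 2 covered over 1852 bp and tamoxifen replicate 2 over 378 bp, and which no first-batch list called. The mean difference of -1003.5 bp was -252 bp without untreated replicate 2 and -1755 bp without untreated replicate 1.

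Ascl2, also known as Mash2, encodes a basic helix-loop-helix factor of the ectoplacental cone and is imprinted, with the maternal copy active in placenta. Its window, chr7:150130001-150180000, held 1 domain, chr7:150149682-150158608, of 8927 bp. It was a single peak of 8299 and 8927 bp untreated and of 5979 and 8079 bp with tamoxifen. Both tamoxifen peaks were narrower than both untreated ones, and the peak of tamoxifen replicate 1 was the narrowest (exact permutation p = 0.333). Covered length of the whole window was 8299 and 9137 bp against 5979 and 8748 bp, which overlap (means 8718 ± 592.6 and 7363.5 ± 1958 bp, SD, 2 libraries each; exact permutation p = 0.667). The difference of -1354.5 bp rested on tamoxifen replicate 1, and without that library it was 30 bp, while without tamoxifen replicate 2 it was -2739 bp. Gcm1 encodes a factor of syncytiotrophoblast formation. Its window, chr9:77880001-77930000, was empty in all 8 lists. The nearest H3K27me3 peak lay 310163 bp after it and 123455 bp before it in the untreated libraries. With tamoxifen it lay 25053 bp after the window in replicate 1 (chr9:77955054-77955480) and 20638 bp before it in replicate 2 (chr9:77859170-77859362), so these were different peaks.

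**Figure D3:**
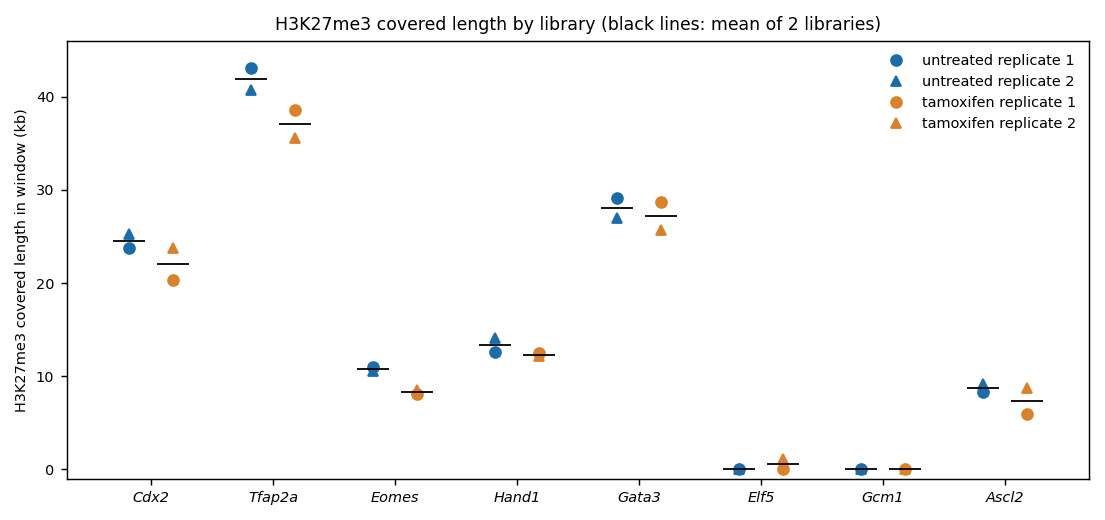
H3K27me3 covered length of each window in kb (y axis) by gene (x axis), untreated in blue and tamoxifen in orange, circles for replicate 1, triangles for replicate 2 and black lines for the mean of 2 libraries. Tfap2a is highest, at 43056 to 35592 bp, and Tfap2a, Eomes and Hand1 show both tamoxifen points below both untreated ones.

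By mean untreated covered length the order was Tfap2a, Gata3, Cdx2, Hand1, Eomes and Ascl2, followed by Elf5 and Gcm1 at 0. The lowest untreated library of each of the first 5 lay above the highest untreated library of the next gene. Windows were 70 kb long for Tfap2a and Gata3, 60 kb for Eomes, 80 kb for Elf5 and 50 kb for the others.

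Within the 6 marked windows 143452 bases lay in a peak of at least 1 library and 69.8% of them in all 4. The share was 79.0% at Hand1, 76.0% at Gata3, 74.3% at Tfap2a, 69.2% at Cdx2 and 61.0% at Ascl2. Bases covered by both untreated and no tamoxifen library came to 2901, of which 1539 lay at Tfap2a, 672 at Cdx2 and 450 at Ascl2. Those covered by both tamoxifen and no untreated library came to 409, of which 265 lay at Gata3 and 144 at Hand1. Bases covered by both libraries of the second batch and neither of the first came to 3008, of which 1349 lay at Eomes and 1051 at Cdx2. The reverse came to 1277. Bases that separated the batches were thus at least as many as those that separated the states.

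**Figure D4:**
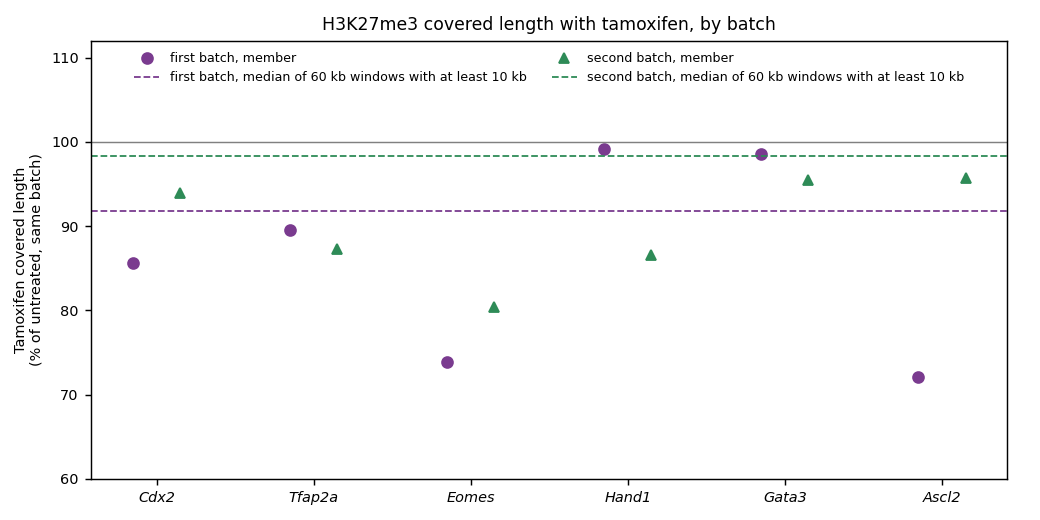
H3K27me3 covered length with tamoxifen as a percent of untreated in the same batch (y axis, from 60%) for the 6 marked genes (x axis), circles for the first batch and triangles for the second. All 12 points lie below 100%, from 72.0% at Ascl2 to 99.1% at Hand1, both in the first batch, and dashed lines give the medians of the 321 tiled windows with at least 10 kb, 91.8% and 98.4%.

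Merging the 4 lists gave 9 domains in these windows that all libraries held. Mean coverage with tamoxifen was below that without it in 9 of 9, against 67.9% of the 4841 regions that all libraries held anywhere. With domains merged from the first batch alone it was lower in 8 of 11 (72.7%), and from the second batch alone in 11 of 14 (78.6%). No share over all regions merged by batch is given, so these counts are not set against the genome. The 9 domains had differences of -2.09 to -23.1 percentage points, and the median difference over all 4841 such regions was -7.37 points. Coverage was lower in both batches in 6 of the 9, against 39.5% of the 4841. Both tamoxifen libraries lay below both untreated ones in 4 of 9, against 23.8%. These were the second Cdx2 domain, the narrower Tfap2a domain, the wider Eomes domain and the Ascl2 domain. The Benjamini-Hochberg adjusted exact permutation p over the 4841 regions was 1 for all 9, since 2 libraries against 2 cannot give a small p. Merged borders are set in part by the lists with the widest peaks. A further 14 merged regions in the windows were missing from at least 1 library, and 9 of them came from 1 library, at 200 to 3790 bp over the 14. None was held by both untreated libraries alone, 1 by both tamoxifen libraries alone, and 3 by both libraries of the second batch alone. The share of these patterns over all merged regions of the genome is not given, and the lists differ in length.

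Few H3K9me3 peaks were called in the 8 windows in untreated cells. A peak in at least 1 of the 4 libraries was found in 2 of 8 windows, against 59.0% of the 60 kb windows. It was 5 of 8 with the windows widened by 20 kb on each side, and 1 of 8 with peaks of at least 500 bp. For these settings no share over tiled windows is given, so whether either count is low is not known. A peak in all 4 was found in 0 of 8, against 22.6%. The 4 peaks were short. At Cdx2 replicates 2 and 3 called chr5:148139281-148139496 (216 bp) and chr5:148139334-148139729 (396 bp), at the far end of the window, and replicates 1 and 4 called none. At Eomes replicates 3 and 4 called chr9:118402916-118403649 (734 bp) and chr9:118403226-118403448 (223 bp), and replicates 1 and 2 called none. None of the 4 overlapped an H3K27me3 peak of any library. From the nearest H3K27me3 domain held by all libraries, the Eomes peaks were 5490 and 5800 bp away.

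The nearest H3K9me3 region called by all 4 libraries lay 53147 to 287765 bp from the windows, with a median of 133604 bp. Over all 60 kb windows the median distance was 82583 bp, and over those with H3K27me3 in all libraries it was 108303 bp. Tfap2a had the nearest, chr13:40903148-40906327 (3180 bp), followed by Elf5 at 58976 bp with chr2:103368977-103370885 (1909 bp). The region nearest to Ascl2, chr7:150023377-150031700, lay 98300 bp before the window and was the widest of the 8, at 8324 bp. The farthest were those of Cdx2, at 281166 bp, and Gata3, at 287765 bp. Peaks that were not called by all 4 libraries came closer. After the Tfap2a window, replicates 2, 3 and 4 each had a peak 18467 to 18504 bp away. In replicate 1 the nearest lay 54023 bp away. Before the Ascl2 window, replicate 4 alone had a peak at 5698 bp. The distances to Gata3 ranged from 59245 bp in replicate 2 to 288224 bp in replicate 1, so no single peak near Gata3 recurred in all lists. The labels give the antibody entry none for H3K9me3 replicate 4, and every region called by all 4 libraries rests on its list too.

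**Figure D5:**
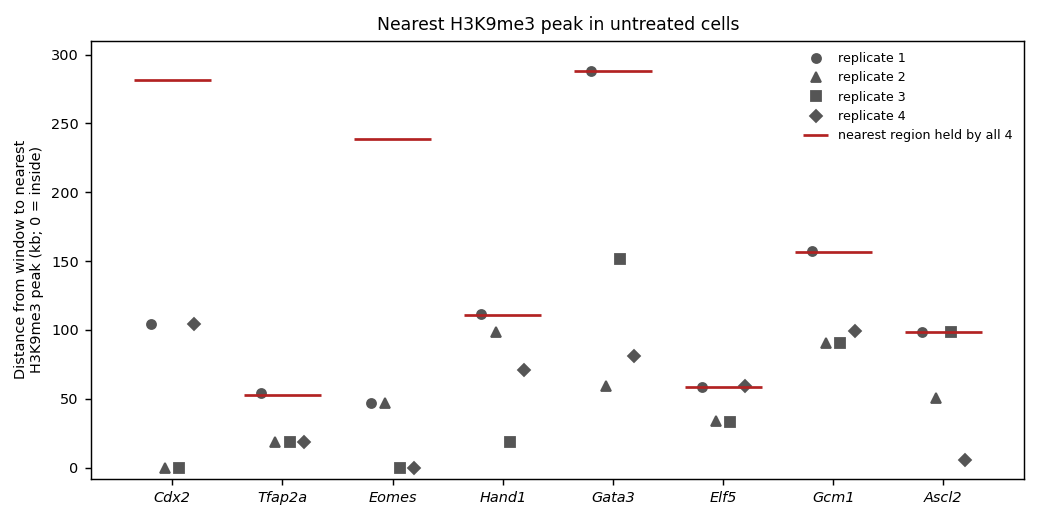
Distance in kb from each window to the nearest H3K9me3 peak of each untreated library (y axis, grey symbols by replicate, 0 for a peak inside) by gene (x axis), with red lines for the nearest region held by all 4 libraries. Cdx2 and Eomes have 2 libraries each at 0, and the red lines run from 53147 bp at Tfap2a to 287765 bp at Gata3.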

How the data were processed

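The authors deposited 1 list of peak positions per library, with no score, read count or control, so depth is unknown and no interval that needs it is given. The submitters' processing notes list Bowtie 0.12.7, build mm9 and MACS2 2.0.10 (first batch) or 2.1.0 (second), and no calling settings are known here. The 5 inputs were not analysed here. Groups came from the sample titles. Windows came from the stated rule, and the members and lists were chosen with earlier results of these data known. Covered length, peak number and widest peak were computed per window with Python 3.11.15 and NumPy 2.4.6. Touching or overlapping peaks were merged, and an overlap of at least 1 bp held a region. The tiled windows of 60 kb run from the first to the last peak of each chromosome. Group means were compared by exact permutation tests, with Benjamini-Hochberg adjustment over all merged regions. The code was tested on simulated peaks. All 8 members were named, and other genes only as neighbours in the RefSeq table (GRCm38.p6). A further trophoblast gene list was not used, as it needs an mm9 annotation. Alternatives were a minimum peak width, equal numbers of widest peaks, joined peaks, each batch alone, each library left out, other windows, and batch as a block. Positions count from 1.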

Additional observations from a re-analysis of the deposited data

Results flagged for a closer look

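In 2 of 10 sets of 4 H3K9me3 values that varied, replicate 1 stood apart from the other libraries by Dixon's test, which marks about 1 set in 20 by chance. The nearest peak to the Tfap2a window was 54023 bp away in replicate 1 and 18467 to 18504 bp away in the others. For Gcm1 it was 157628 bp in replicate 1 and 90431 to 99445 bp in the others. Replicate 1 is the only H3K9me3 library of the first batch and has the shortest list, with 18037 peaks against 29410 to 42725, and the part of either in these distances was not tested.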

How the results depend on the processing

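Fewer H3K27me3 bases with tamoxifen were found in 6 of 8 windows, and in 5 or 6 under every alternative run. With batch as a replicate block the mean differences equal the reported ones by construction, so the count of 6 there is no separate check. The smallest exact p of sign flips of 2 differences is 0.5. Only the number 2 is shared by the labels of both states, so the pairing follows the batch. Of 72 alternative differences in the 6 marked windows 68 kept the direction, and 4 turned. The 68 include the block differences, which could not turn. With 1 library left out, the Cdx2 difference ranged from -4190 to -764 bp, that of Hand1 from -1755 to -252 bp and that of Ascl2 from -2739 to 30 bp, the last without tamoxifen replicate 1. Those of Tfap2a and Eomes moved by less than 1.5 times with 1 library left out. That of Gata3 ranged from -2298.5 to 671.5 bp, being 270 bp without untreated replicate 1 and 671.5 bp without tamoxifen replicate 2, and it was 316 bp with peaks under 1 kb apart joined. Within the widest merged domain of each window alone, the difference was -787 bp at Tfap2a, -869 bp at Eomes and -266.5 bp at Hand1. It was -1679 bp at Cdx2, -1584 bp at Ascl2 and -2341.5 bp at Gata3. More peaks with tamoxifen were counted in 4 windows, but in 2 with an equal number of widest peaks or in the first batch alone, and in 2 to 5 with 1 library left out. The whole tamoxifen lists also held more peaks in both batches, and no share over the tiled windows is given for this count. A narrower widest peak with tamoxifen was counted in 4 windows, and in 4 to 6 under the alternatives run. The median peak of the whole lists was also narrower with tamoxifen in both batches. No share over the tiled windows is given for this count of windows either. H3K9me3 in at least 1 library was found in 2 windows, in 5 with windows widened by 20 kb on each side and in 1 with peaks of at least 500 bp. An H3K9me3 region of all 4 libraries lay in 0 windows, and one of at least 2 libraries in 2. No share over tiled windows is given for the widened windows, for peaks of at least 500 bp or for regions of at least 2 libraries. Tiles of 50 and 80 kb in place of 60 kb held H3K27me3 in all libraries in 9.02% and 13.4%, and H3K9me3 in 19.3% and 28.2%, as longer windows hold more. The lists give no depth, so a window without a peak is not shown to lack the mark.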
